A study of Mus musculus with 6 samples.

Results

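The comparison described here set 1 array of a mouse fibroblast line grown with doxycycline, whose title also names estradiol, against 1 array of the same line grown with doxycycline alone. These are 2 of the 6 arrays in the study, chosen by their titles and not by any measured value, and the other 4 serve as background. RNA came from line 35/1-22, per the design text a line of NIH3T3 cells, which are immortalised mouse embryo fibroblasts. Every sample carried the cooperating oncogenes c-myc and Ha-ras under a Tet-off promoter and constantly made IRF-1hER, an IRF-1 fusion switched on by estradiol. All cultures grew in DMEM with 10% FCS. The first doxycycline array had 2 µg/ml doxycycline in its treatment entry and an RNeasy extraction. The estradiol-titled array had the same treatment entry, 2 µg/ml doxycycline with no estradiol listed, and a TRIzol extraction. The 2 withdrawal arrays (oncogenes on) had no treatment entry, and the 2 estradiol arrays (oncogenes on, estradiol for 48 h) listed estradiol at 1 mM as the labels give it. In each of these groups replicate 1 was extracted with RNeasy and replicate 2 with TRIzol. Because the title and the extraction changed together between the compared arrays, they cannot be told apart within that pair. The 2 arrays carry 1 sample each, so no difference between them has a replicate check, no p-value is given, and a single line stands for the model. The design text counts 2 replicates for each of 3 conditions and names no condition that combines doxycycline with active IRF-1.

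Doxycycline keeps a Tet-off promoter silent, so cells with doxycycline should have the oncogenes off. IRF-1 is a transcription factor of the interferon response. It binds repeats of the letters GAAA in the promoters of genes for antiviral proteins, for guanylate-binding GTPases and for the presentation of antigen on MHC class I, and it is known for slowing cell growth. A fusion to the hormone-binding part of the estrogen receptor stays inactive until estradiol binds. Interferons, secreted proteins made after infection, switch on an overlapping set of genes through Stat and IRF factors in nearly every cell type, fibroblasts included.

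Levels are MAS5 signals, the brightness that the Affymetrix software gives each probe set, a set of short oligonucleotides matched to 1 transcript. Differences are log2(signal + 32), estradiol-titled minus first doxycycline array, so that a value of 1 is a 2-fold difference on that scale and the differences of dim genes are understated. The 6 arrays had trimmed mean signals between 150.09 and 150.1. After the lowest 40% of probe sets were left out, 7453 remained, and their median difference was -0.01. The array labelled withdrawal replicate 2 stood apart from its group: it differed at least 2-fold from withdrawal replicate 1 in 920 probe sets (12.3%) but from the first doxycycline array in 324. Counts that set the compared arrays against all the others are therefore also given without it.

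The estradiol-titled array was at least 2-fold higher than the first doxycycline array in 169 of 7453 probe sets (2.27%) and at least 2-fold lower in 114 (1.53%), or 3.8% in both directions together. The higher side held the large differences. There, 49 probe sets differed at least 4-fold, 29 at least 8-fold and 5 at least 32-fold, while on the lower side 6 differed at least 4-fold and 0 at least 8-fold. Genes of the interferon response and of antigen presentation filled the top of the higher side. Of the 20 genes with the largest positive difference, 15 were on the lists of interferon-stimulated genes, interferon-inducible GTPases, MHC class I, MHC class II or reported IRF-1 targets, and of the top 40 genes 32 were. Of the 5662 tested genes, the interferon and MHC lists held 61 and the IRF-1 list 18, some of them shared. Among the 61, 12 passed the filter only through the estradiol-titled array, which favours a high rank.

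**Figure D1:**
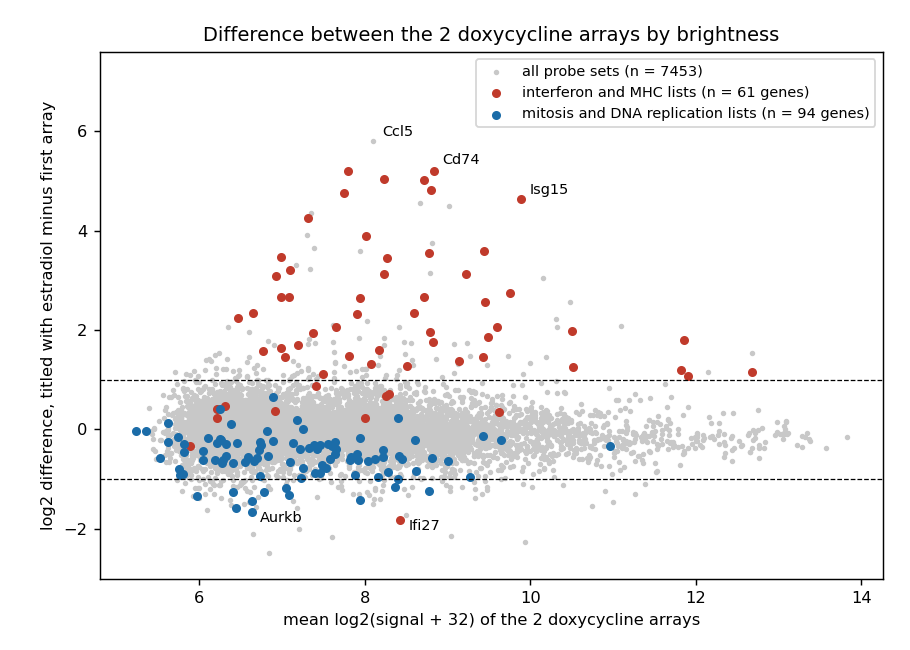
Difference between the 2 doxycycline arrays in log2(signal + 32), estradiol-titled minus first array, against the mean log2(signal + 32) of both arrays, for 7453 probe sets. Red points are the 61 tested genes of the interferon and MHC lists, blue points the 94 of the mitosis and DNA replication lists, and dashed lines mark 2-fold; 50 red points lie above the upper line and 1, Ifi27, lies below the lower one.

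It was the estradiol-titled array, more than the first doxycycline array, that stood outside the range of the rest of the study on the higher side. Of the 169 higher probe sets, 160 (94.7%) had their highest signal of all 6 arrays on the estradiol-titled array, and 70 (41.4%) had their lowest on the first doxycycline array. Among all probe sets of any difference, these shares were 20.2% and 15.8%. Since the filter used the mean of all 6 arrays, 32 of the 169 passed it only through the estradiol-titled array, which favours a high rank there. Of the other 137, 129 were highest on the estradiol-titled array and 53 were lowest on the first doxycycline array. None of the lower probe sets passed only in this way. Without withdrawal replicate 2 the counts were 164 and 79. On the lower side the position was more even: of the 114 lower probe sets, 69 (60.5%) were lowest on the estradiol-titled array and 55 (48.2%) were highest on the first doxycycline array. Among all probe sets, these shares were 20.8% and 13.8%. Without withdrawal replicate 2 these counts were 71 and 72.

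With a margin of at least 2-fold over each of the 5 other arrays, the estradiol-titled array was above them in 92 probe sets (1.23%) and below them in 16 (0.215%). Of the 92, 19 passed the filter only through that array. The other 5 arrays had between 0 and 19 such probe sets in each direction. Withdrawal replicate 2 came next on the higher side, with 19.

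**Figure D2:**
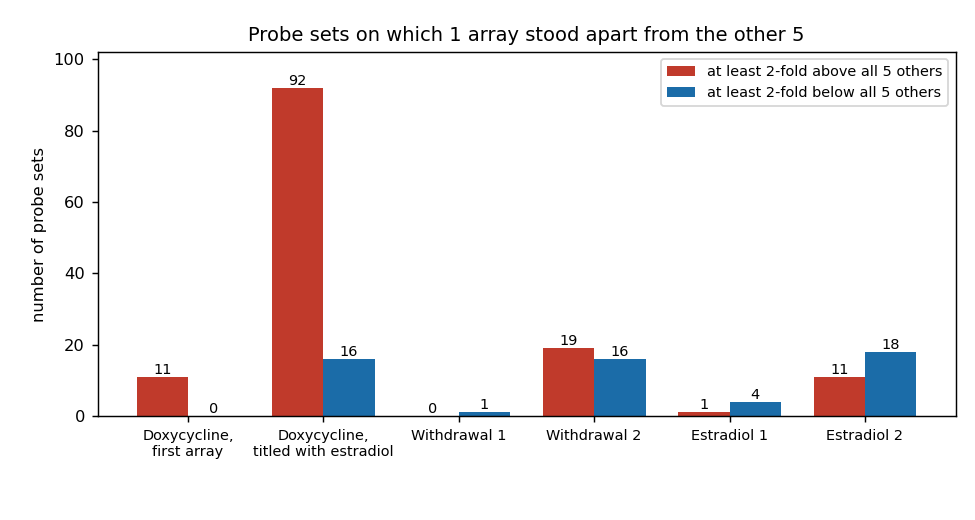
Number of probe sets, of 7453, on which each array lay at least 2-fold above (red bars) or at least 2-fold below (blue bars) all 5 other arrays. The estradiol-titled doxycycline array had 92 above and 16 below, and no other array had more than 19 in either direction.

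The same change of extraction kit, RNeasy to TRIzol, was made within the withdrawal pair and within the estradiol pair, which share no array with the compared pair. Of the 169 higher probe sets, 16 were also at least 2-fold higher with TRIzol in the withdrawal pair (6.39% of all probe sets were), 1 in the estradiol pair (1.56% of all) and 0 in both. For 152 (89.9%) neither pair showed the difference, but at these shares most of all probe sets were 2-fold higher in neither pair too. Of the 114 lower probe sets, 15 were also 2-fold lower with TRIzol in the withdrawal pair (5.96% of all), 6 in the estradiol pair (1.8% of all) and 2 in both. All 3 TRIzol arrays lay above all 3 RNeasy arrays in 36 of the 169 (7.72% of all probe sets did), and below them in 14 of the 114 (6.75% of all). Over both other TRIzol arrays, the estradiol-titled array was at least 2-fold higher in 106 of the 169. The share over all probe sets was not counted, and choosing the 169 for a high value on this array favours a high count.

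Estradiol was also given to cells with the oncogenes on, and the arrays of that comparison give the same probe sets a second reading. Estradiol replicate 1 differed at least 2-fold from withdrawal replicate 1 in 16 probe sets (0.215%), and estradiol replicate 2 from withdrawal replicate 2 in 649 (8.71%). Of the 169 higher probe sets, 1 was also at least 2-fold higher with estradiol in replicate 1 (0.121% of all) and 3 were in replicate 2 (4.29% of all), where 13 were at least 2-fold lower. Of the 114 lower probe sets, 1 was also at least 2-fold lower with estradiol in replicate 1 (0.0939% of all) and 26 were in replicate 2 (4.41% of all), where 16 were at least 2-fold higher. Replicate 2 of this comparison includes withdrawal replicate 2, which stood apart from its group.

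Interferon-stimulated genes code for proteins that block virus growth, or that sense virus and relay the alarm. Of 33 tested members of this list, 31 were higher on the estradiol-titled array, 27 of them at least 2-fold (2.27% of all probe sets were) and 1 was at least 2-fold lower. The median difference was 2.06. In the other pairs the same genes had medians near 0: 0.13 for withdrawal replicate 2 minus 1, -0.11 for estradiol replicate 2 minus 1, 0.05 for estradiol minus withdrawal in replicate 1 and -0.13 in replicate 2. Against each of the 4 other arrays the estradiol-titled array had a median between 1.63 and 1.89. With no filter, 28 of the 37 list members on the array were at least 2-fold higher than on the first doxycycline array, with a median of 1.87. In RNA from a whole culture, a higher level in every cell and a larger share of cells with a high level cannot be told apart.

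For 6 of these genes and of the interferon-inducible GTPases, the 250 bases before the RefSeq transcript start (GRCm38.p6) are shown because they hold the repeat that IRF factors read. Capitals mark matches, on either strand, to GAAA followed by any 2 bases and GAAA again. On the opposite strand a match reads TTTC, any 2 bases, TTTC.
Ifit1: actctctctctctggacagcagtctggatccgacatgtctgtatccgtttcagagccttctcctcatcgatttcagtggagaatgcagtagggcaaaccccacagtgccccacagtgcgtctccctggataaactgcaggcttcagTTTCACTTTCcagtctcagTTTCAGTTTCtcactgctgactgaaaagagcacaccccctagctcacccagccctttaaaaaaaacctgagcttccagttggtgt
Ifit3: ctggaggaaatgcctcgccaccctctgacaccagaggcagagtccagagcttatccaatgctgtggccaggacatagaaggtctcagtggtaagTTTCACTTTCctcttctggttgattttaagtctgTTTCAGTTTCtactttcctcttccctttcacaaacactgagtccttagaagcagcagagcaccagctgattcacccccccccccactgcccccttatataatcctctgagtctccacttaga
Isg15: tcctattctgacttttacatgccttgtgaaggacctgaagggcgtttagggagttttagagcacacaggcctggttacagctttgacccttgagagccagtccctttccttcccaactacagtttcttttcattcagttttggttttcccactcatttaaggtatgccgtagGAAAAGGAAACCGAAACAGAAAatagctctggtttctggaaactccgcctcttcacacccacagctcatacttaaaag
Rsad2: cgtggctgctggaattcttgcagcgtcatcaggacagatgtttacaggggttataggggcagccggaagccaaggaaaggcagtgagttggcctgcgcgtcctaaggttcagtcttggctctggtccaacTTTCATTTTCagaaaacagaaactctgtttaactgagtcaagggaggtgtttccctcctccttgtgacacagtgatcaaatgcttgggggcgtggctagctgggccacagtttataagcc
Igtp: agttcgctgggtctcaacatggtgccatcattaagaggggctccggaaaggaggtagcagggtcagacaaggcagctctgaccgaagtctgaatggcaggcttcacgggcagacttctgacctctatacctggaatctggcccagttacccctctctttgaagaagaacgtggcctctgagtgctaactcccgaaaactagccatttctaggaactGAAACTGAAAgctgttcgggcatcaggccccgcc
Gbp2: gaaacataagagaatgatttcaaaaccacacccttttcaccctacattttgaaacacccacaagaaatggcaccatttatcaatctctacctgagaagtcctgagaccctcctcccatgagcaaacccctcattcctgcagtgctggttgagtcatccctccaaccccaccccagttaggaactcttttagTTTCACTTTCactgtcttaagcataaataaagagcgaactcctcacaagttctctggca

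Ifit1 lies on the plus strand at chr19:34640639-34640888 and held 2 matches, whose first bases were 104 and 85 bases before the start. In Ifit3, at chr19:34583279-34583528 on the plus strand, the 2 matches began at 156 and 122 bases before the start. Isg15, at chr4:156200819-156201068 on the minus strand, held 3 matches that overlap one another. The window of Rsad2 (chr12:26456453-26456702, minus strand) held 1 match, as did that of Igtp (chr11:58199306-58199555, plus strand) and that of Gbp2 (chr3:142620413-142620662, plus strand). Over windows of 300 bases, from 250 before to 50 after the start, 1131 of all 32851 windows (3.44%) held the repeat. Of the tested genes 4590 matched to a window, and 167 of these (3.64%) held it. Among the genes at least 2-fold higher, 22 of 105 with a window (21.0%) held it. Of those at least 8-fold higher, 10 of 17 (58.8%) did. Among the genes at least 2-fold lower, 4 of 84 (4.76%) did. Of the 169 higher probe sets, 32 passed the filter only through the estradiol-titled array, and the shares without their genes were not counted. By list, the repeat was in 6 of 7 GTPase windows, in 10 of 25 windows of interferon-stimulated genes, in 2 of 13 of MHC class I and in 0 of 4 of MHC class II. The palindrome that estrogen receptors read, GGTCA and TGACC with any 3 bases between them, was in 23 of all 32851 windows (0.07%) and in 0 of the 4590 windows of tested genes, so it cannot separate higher genes from the rest. These matches describe letters in a window and are not measured binding.

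Ifit1, a protein that binds foreign RNA, had a signal of 41.9 on the first doxycycline array and 2362.5 on the estradiol-titled array. On the withdrawal arrays it was 66.0 and 125.0, and on the estradiol arrays 84.6 and 109.6. The difference of 5.02 was a 56.4-fold signal ratio, and the estradiol-titled array alone was high. Ifit3, its partner, had 52.0 and 2339 on the compared arrays, a 45-fold ratio, against 48.5 to 74.1 on the other 4. Isg15, a ubiquitin-like protein that is joined to other proteins during infection, had 158.8 and 4709.5, a 29.7-fold ratio. On the other 4 arrays Isg15 lay between 79.0 and 299.1, with both TRIzol arrays below both RNeasy arrays.

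Usp18 removes Isg15 from proteins and damps interferon signalling. Its signal was 20.5 on the first doxycycline array and 1702 on the estradiol-titled array, with 29.5 to 63.5 on the others. Rsad2, or viperin, had 4.2 and 662.1, against 5.0 to 39.7. Mx1, a GTPase that acts on influenza virus, had 6.2 and 391.5, against 17.5 to 22.5 elsewhere. Since these genes had signals under 32 on the first doxycycline array, their log2 differences of 5.05, 4.26 and 3.47 are understated and no ratio is given.

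Irf7, the factor that amplifies interferon production, was 13.1 on the first doxycycline array and 383.9 on the estradiol-titled array, and 10.7 to 27.7 on the others. A further probe set for Irf7 differed by 0.84. Irf9, the DNA-binding subunit of the factor that carries the interferon signal, was 103.0 and 342.5, a 3.33-fold ratio, against 27.9 to 114.6. Lgals3bp, a secreted glycoprotein, was 170.9 and 1737, a 10.2-fold ratio, against 242.8 to 399.8. Ifi35 was 138.4 and 839.5, a 6.07-fold ratio, against 116.3 to 226.3. Further members with differences above 2 were Ifi204, Ifi202b, Mx2, Adar, Ifi27l2a, Sp100, Ube2l6 and Ifit2. The signals of Ifi204, Ifi202b, the Ifit genes and the MHC class I genes are uncertain as to the exact gene, because close copies can bind the same probes.

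Ifi27 went the other way and was the member at least 2-fold lower. Its signal was 617.3 on the first doxycycline array and 151.4 on the estradiol-titled array, a 4.08-fold ratio, and 294.1 to 528.5 on the others. Of its relatives, Ifi27l2a differed by 2.67. Ifitm2, a membrane protein that blocks virus entry, was dim, with 34.4 and 21.0, while its relative Ifitm3 differed by 1.08.

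Interferon-inducible GTPases attack the vacuoles in which microbes live, and most hold the IRF repeat in the windows described above. All 8 tested members were at least 2-fold higher (2.27% of all probe sets were), with differences from 2.67 to 4.77 and a median of 3.50. The median was 0.18 in the withdrawal pair and 0.22 in the estradiol pair. With no filter, all 9 members on the array were at least 2-fold higher on the estradiol-titled array, with a median of 3.44. Igtp was 35.2 on the first doxycycline array and 967.4 on the estradiol-titled array, a 27.5-fold ratio, with 34.5 to 61.8 on the others. Gbp2 was 168.9 and 2377, a 14.1-fold ratio. Its background was broader, from 148.9 on withdrawal replicate 2 to 427.3 on withdrawal replicate 1, and the estradiol-titled array lay above all of it. Gbp3 was 61.4 and 983.5, a 16-fold ratio, against 66.1 to 146.5. Irgm2 was 95.6 and 1465, a 15.3-fold ratio, against 55.2 to 77.2. Gbp7 was 69.7 and 857.1, a 12.3-fold ratio, against 110.4 to 140.1. Iigp1 was 9.3 and 1092, and its other probe set differed by 3.31. On the remaining arrays Iigp1 was 3.8 and 15.9 with RNeasy and 88.0 and 59.3 with TRIzol, with both TRIzol arrays above both RNeasy arrays.

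**Figure D3:**
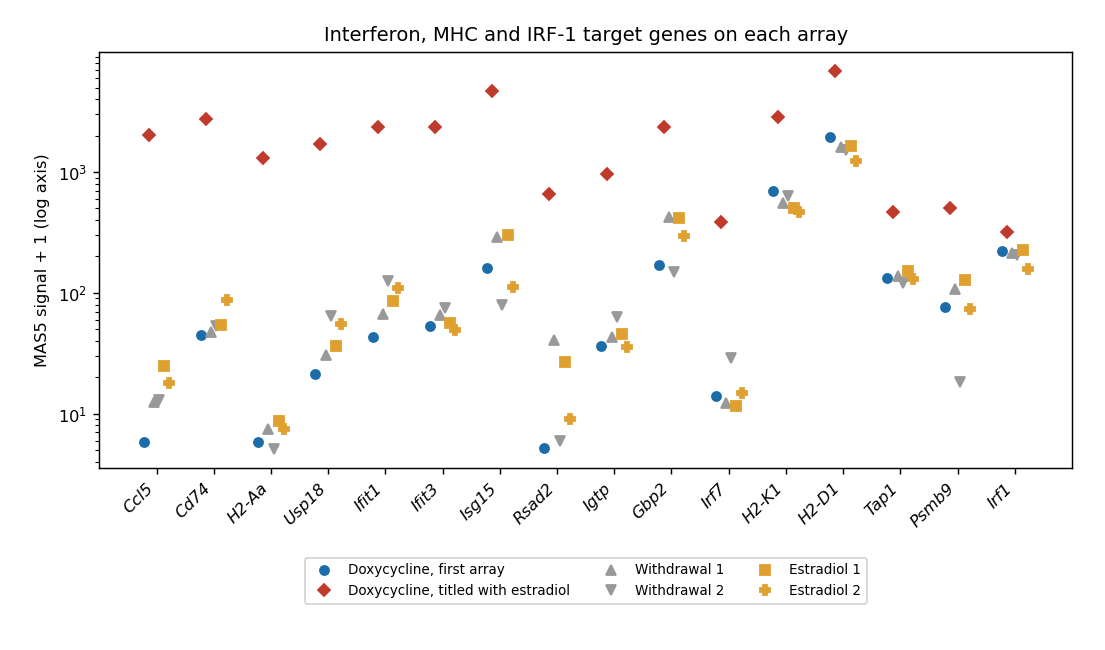
MAS5 signal plus 1, on a log axis, of 16 interferon, MHC and IRF-1 target genes on each of the 6 arrays, 1 point per array. For Ifit3 the estradiol-titled array (red diamonds) lies at 2339 and the other 5 arrays between 48.5 and 74.1, while Irf1, at the right, spans 155.2 to 319.8 over all 6.

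MHC class I molecules show peptides cut by the immunoproteasome, and carried into the endoplasmic reticulum by the TAP transporter, to killer T cells. All 15 tested members of this list were higher on the estradiol-titled array and 10 were at least 2-fold higher (2.27% of all probe sets were). The median difference was 1.28. The medians were -0.43 in the withdrawal pair and -0.19 in the estradiol pair. With no filter, 10 of the 20 members on the array were at least 2-fold higher on the estradiol-titled array, with a median of 0.93. H2-D1, a heavy chain, had 1953 on the first doxycycline array and 6860 on the estradiol-titled array, a 3.51-fold ratio, with 1243 to 1638 on the others. H2-K1, the other classical heavy chain, had 698.1 and 2858.0, a 4.09-fold ratio, with 467.3 to 636.1 on the others. The 2 further probe sets of each gene differed by 2.22 and 1.81 for H2-D1 and by 1.15 and 1.18 for H2-K1. B2m, the light chain shared by all class I molecules, was 2363 and 5474, a 2.32-fold ratio, against 1406 to 2147.

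Psmb9 is a catalytic subunit of the immunoproteasome. It had 75.1 on the first doxycycline array and 501.3 on the estradiol-titled array, a 6.68-fold ratio, with 17.4 on withdrawal replicate 2 and 72.4 to 126.9 on the other 3. Psmb10, another subunit, had 212.5 and 802.5, a 3.78-fold ratio. For Psmb10 the background reached nearly as high: 578.3 and 161.6 after withdrawal and 540.9 and 643.0 with estradiol. Tap1, a subunit of the peptide transporter, had 132.7 and 469.2, a 3.54-fold ratio, against 119.7 to 150.7. A dimmer probe set for Tap1, below the filter, differed by -0.10. Tap2 differed by 1.28 and Tapbp, which bridges the transporter to class I, by 1.25.

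MHC class II molecules present peptides to helper T cells. They are made by macrophages, dendritic cells and B cells, and in other cells after interferon-gamma through the coactivator Ciita. All 5 tested members were at least 2-fold higher (2.27% of all probe sets were), with a median of 1.97. The filter used the mean of all 6 arrays, and H2-Aa passed it only through the estradiol-titled array. With no filter, 7 of the 10 members on the array were at least 2-fold higher (1.63% of all probe sets were), with a median of 1.82. Cd74, the invariant chain, was 43.4 on the first doxycycline array and 2743 on the estradiol-titled array, a 63.2-fold ratio, with 46.3 to 86.0 on the others. H2-Aa, the alpha chain of the I-A molecule, was 4.8 and 1317, with 4.1 to 7.7 on the others. H2-Eb1 was 52.8 and 293.0, a 5.55-fold ratio, against 13.8 to 59.6. H2-DMa, which helps load peptides, was 192.2 and 845.3, a 4.40-fold ratio, against 135.3 to 209.0, and H2-DMb1 differed by 1.38. Below the filter, H2-Ab1 was 20.5 and 249.7 against 7.7 to 10.7, and Ciita was 6.5 and 92.9 against 7.6 to 52.8.

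Over the interferon and MHC lists together, 50 of 61 tested genes were at least 2-fold higher (2.27% of all probe sets were) and 1 was lower. Of the 61, 58 had their highest signal of the 6 arrays on the estradiol-titled array, as did 20.2% of all probe sets. Because the filter used the mean of all 6 arrays, 12 of these 61 genes passed it only through the estradiol-titled array. With no filter, 54 of the 76 genes on the array were at least 2-fold higher, against 202 of all 12422 probe sets (1.63%).

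Irf1 itself did not reach a 2-fold difference. Its 1 probe set had 219.1 on the first doxycycline array and 319.8 on the estradiol-titled array, with 211.8 and 204.3 on the withdrawal arrays and 224.7 and 155.2 on the estradiol arrays. The ratio was 1.46-fold, and the estradiol-titled array was the highest of the 6. The labels do not say whether this probe set reads the fusion. Of 18 tested genes reported as IRF-1 targets, 14 were higher, 8 of them at least 2-fold (2.27% of all probe sets were). The median was 0.81, against 0.49 for Irf1. With no filter, over the 32 targets on the array, the median was 0.36 and 9 were at least 2-fold higher. The list shares Gbp2, Tap1, Psmb9, B2m and Eif2ak2 with the lists above.

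Ccl5, a chemokine that draws T cells, had the largest difference of all named genes, 5.81. It was 4.8 on the first doxycycline array and 2028 on the estradiol-titled array, with 11.5 to 24 on the other 4. Socs1, which blocks interferon receptors in a feedback loop, was 422.2 and 1081, a 2.56-fold ratio, against 336.7 to 463.6. Eif2ak2, the kinase PKR that stops translation, was 47.4 and 186.4, a 3.93-fold ratio, against 46.4 to 67.3. Il15ra differed by 1.15, but its estradiol-titled signal of 121.3 lay within the background range of 62.4 to 137.8. Vcam1 differed by 0.79 and Lox, a collagen cross-linking enzyme reported to follow IRF-1, by -0.86. Nos2, Casp1, Ifnb1, Cxcl9 and Il15 were too dim to pass the filter.

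Genes named by the study's title and design differed little here. Ccnd1, cyclin D1, is read by 2 probe sets, and both differed by less than 2-fold. The brighter had 148.6 and 135.7 on the doxycycline arrays, 370.8 and 227.2 on the withdrawal arrays, and 332.9 and 609.0 on the estradiol arrays. The other had 148.8 and 127.8, against 411.6, 54.2, 401.1 and 185.6 on the same arrays in that order. Myc had 62.3 and 49.6 on the doxycycline arrays, on the withdrawal arrays 25.7 and 118.5, and on the estradiol arrays 31.9 and 28.1. Cdkn1a, the inhibitor p21, differed by 0.24 and 0.69 on its 2 probe sets, and on both the estradiol-titled array lay inside the range of the background.

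Of 18 tested genes reported as estrogen-responsive, 0 were at least 2-fold higher (2.27% of all probe sets were) and 1 was lower (1.53% of all). At these shares, a count of 0 among so few genes does not set the list apart from all probe sets. The median difference of the list was 0.23, with 11 higher and 7 lower, against a median of -0.01 over all probe sets. Ctsd, the protease cathepsin D, was 2202 on the first doxycycline array and 3433 on the estradiol-titled array, a 1.56-fold ratio, with 1358 to 2729 on the others. Igfbp4, which binds insulin-like growth factors, was 369.3 and 554.6, a 1.5-fold ratio, against 214.1 to 358.5. Esr1, the estrogen receptor, was dim, at 33.6 and 70.4, and 3 further probe sets below the filter differed by -0.34, 0.04 and 0.31. Efna1, a membrane ligand, was the lower one, at 68.3 and 16.7 against 40.8 to 110.9. Pgr did not pass the filter, at 1.8 and 12.3 on the compared arrays.

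Targets of NF-kappaB, chemokines and cytokines did not shift as a list, with a median of 0.10. Of 21 tested, 3 were at least 2-fold higher (2.27% of all probe sets were) and 2 were lower (1.53% of all). The higher ones were Ccl5, Saa3 and Ccl8. Saa3, an acute-phase protein, was 4.0 and 701.8 on the compared arrays, against 26.0 to 43.9. Ccl8, a monocyte chemokine, was 80.4 and 211.6, but it was also 180.5 on withdrawal replicate 2, so the estradiol-titled array did not stand clear. Ccl9, another chemokine, was 1080.0 and 219.0, a 4.93-fold ratio downward, with 2396 on withdrawal replicate 2 and 270.5 to 448.3 on the other 3. Nfkbie, an inhibitor of NF-kappaB, was 114.7 and 30.4, against 22.0 to 60.9, so here the first doxycycline array was the high one. Il6, Ccl2 and Cxcl1, classical NF-kappaB targets in fibroblasts, differed by 0.30, 0.25 and 0.53.

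Genes of cell division were lower on the estradiol-titled array, by amounts far smaller than those of the interferon genes. Of 48 tested mitosis genes 43 were lower, 5 of them at least 2-fold (1.53% of all probe sets were), with a median of -0.59. Of 46 DNA replication genes 44 were lower, 7 of them at least 2-fold, with a median of -0.50. The estradiol-titled array had the lowest signal of the 6 for 34 genes of each list, and for 20.8% of all probe sets. Both lists also varied widely among the background arrays: mitosis genes had a median of -1.0 for withdrawal replicate 2 minus 1, 0.04 for estradiol replicate 2 minus 1, and 1.05 for estradiol minus withdrawal in replicate 2. The differences between the doxycycline arrays were thus smaller than that between the arrays of the withdrawal pair.

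Aurkb, a kinase that corrects chromosome attachment, had 144.2 on the first doxycycline array and 23.9 on the estradiol-titled array. After withdrawal it was 205.0 and 84.9, and with estradiol 234.2 and 286.4, so the estradiol-titled array was the lowest by a difference of at least 1.06. Top2a, which untangles chromosomes, had 183.2 and 53.9, against 182.4 to 484.4. Mad2l1, of the spindle checkpoint, had 138.0 and 38.9, against 116.2 to 323.6. Stmn1, which loosens microtubules, had 641.3 and 254.7, against 807.8 to 1015. Kifc1, a spindle motor, had 98.8 and 23, but it was lower still on withdrawal replicate 2, at 15.7.

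Among replication genes, Mcm5, a subunit of the helicase that opens DNA, had 369.2 and 118.0 on the compared arrays, against 324.3 to 858.1. A dimmer probe set for Mcm5, below the filter, differed by 1.13. Chaf1a, which places histones behind the fork, had 118.2 and 18.3, against 61.8 to 190.2. Uhrf1, which copies DNA methylation, had 131.7 and 28.2, against 144.4 to 411.9. Rrm2, which makes the building blocks of DNA, had 168.0 and 55.8, against 118.3 to 494.4. Each of these was lowest on the estradiol-titled array, and each was lower on withdrawal replicate 2 than on withdrawal replicate 1. Rpa2, of the protein that coats single strands, had 67.5 and 7.4, against 20.6 to 89.3.

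Mki67, the proliferation marker, was read by 2 probe sets that disagreed. The brighter had 65.0 and 31.3 on the doxycycline arrays, against 129.8 to 355.1 on the others. The dimmer had 25.4 and 48.7, against 14.3 to 38.6. Pcna and Tk1, a clamp and a kinase of replication, differed by -0.49 and -0.59.

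**Figure D4:**
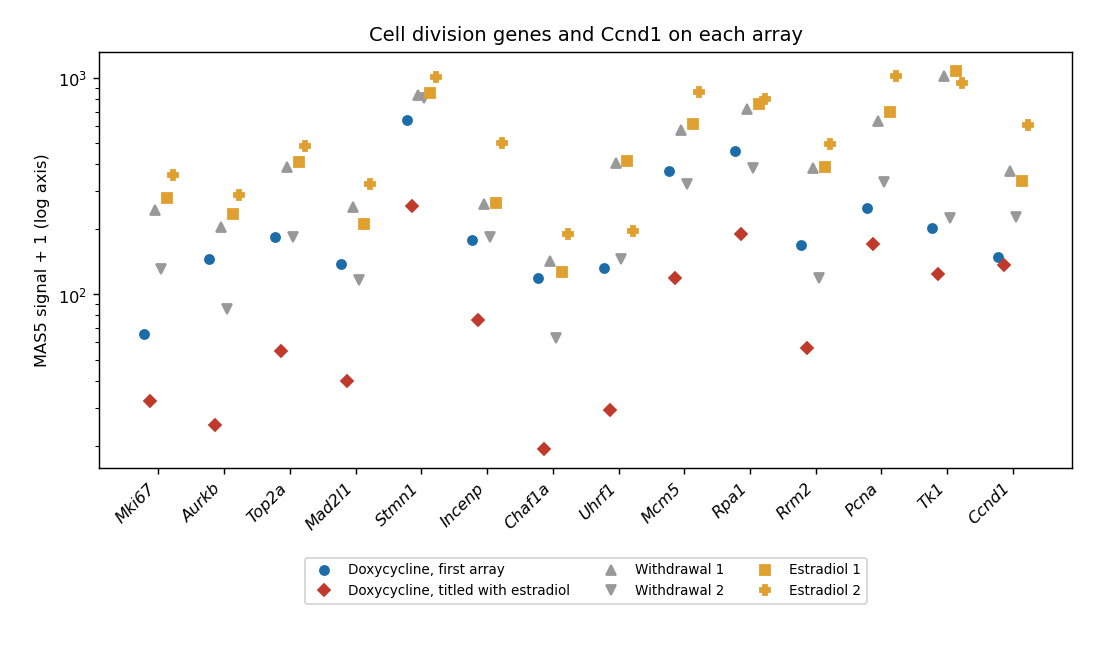
MAS5 signal plus 1, on a log axis, of 13 cell division genes and Ccnd1 on each of the 6 arrays, 1 point per array. Red diamonds mark the estradiol-titled doxycycline array, which is lowest for the division genes shown, for example Top2a at 53.9 with the other 5 arrays between 182.4 and 484.4.

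Outside the division genes, the largest negative differences fell on single genes of mixed roles, and for many of them it was the first doxycycline array that stood high. Pea15a, which holds ERK in the cytoplasm, had the largest, -2.49. It was 240.1 on the first doxycycline array and 16.5 on the estradiol-titled array, with 126.2 to 177.5 on the others, so the estradiol-titled array was the one apart. Postn, the matrix protein periostin, was 380.9 and 59.9, with 3.0 to 71.6 on the others, so the first doxycycline array was the one apart. Kcnj9, a potassium channel, likewise was 430.2 and 130.6, against 113.1 to 144.3, but its other probe set differed by 0.40, the opposite way. Aqp1, a water channel, was 2900 and 979.9, against 311.0 to 1020, again with the first array high. Mapk7, the kinase ERK5, was 175.7 and 16.2, against 25.4 to 116.1, a spread that leaves neither array far outside. Hoxa7, a transcription factor of body position, was 129.4 and 26.6, against 62.6 to 143.6. Lxn, a carboxypeptidase inhibitor, was 622.2 and 166.1, with 755.9 on withdrawal replicate 2 and 89.7 to 102.2 on the other 3. Nacc2, Dctpp1, C77080 and Nrep, also among the 15 named genes with the largest negative difference, had differences from -2.0 to -1.51. Further probe sets differed less, by -0.36 and, below the filter, -0.24 for Nacc2, by -0.68 for Dctpp1 and by 0.31 for C77080. A further probe set for Aqp1, below the filter, differed by 0.01.

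Matrix and contractile genes, which mark fibroblasts, were little moved as lists. Of 45 extracellular matrix genes 2 were at least 2-fold lower (1.53% of all probe sets were) and 0 higher, with a median of -0.13. Acta2, smooth muscle actin, was 396.2 and 151.1 on the compared arrays, with 842.7 on withdrawal replicate 2 and 103.7 to 111.7 on the other 3. Thbs2, a matrix protein that restrains vessel growth, was 1522 and 668.1, with 1753 on withdrawal replicate 2 and 337.0 to 405.7 on the other 3. For both, the estradiol-titled array lay between the first doxycycline array and most of the background.

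Stress and early-response lists had few members past 2-fold, although some of their shares were above those of all probe sets (2.27% higher, 1.53% lower). Gadd45a, a p53 target also driven by other stresses, was 83.4 and 309.3, a 3.71-fold ratio, against 75.7 to 130.4. It was 1 of 2 p53 targets past 2-fold among 19 tested, the other being Tap1, and their median was -0.01. Klf4, a transcription factor, was 143.0 and 453.1, a 3.17-fold ratio, against 278.1 to 381.9. Trib3, of the amino acid stress response, was 39.8 and 135.0, a 3.39-fold ratio, against 60.1 to 123.3. The list of 28 genes of that response and of endoplasmic reticulum stress had a median of 0.27 with 21 higher. Antioxidant genes had 4 of 29 (13.8%) at least 2-fold lower, among them Mt1, a metallothionein, at 3892 and 1800 against 2214 to 3133. Ribosome biogenesis genes and reported Myc targets had 0 of 42 past 2-fold in either direction and a median of -0.13. Cholesterol synthesis genes were lower in 15 of 16, with 0 past 2-fold and a median of -0.37. For 8 of them the estradiol-titled array was the lowest of the 6 (20.8% of all probe sets). Their median was 0.32 for withdrawal replicate 2 minus 1 and -0.13 for estradiol replicate 2 minus 1.

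**Figure D5:**
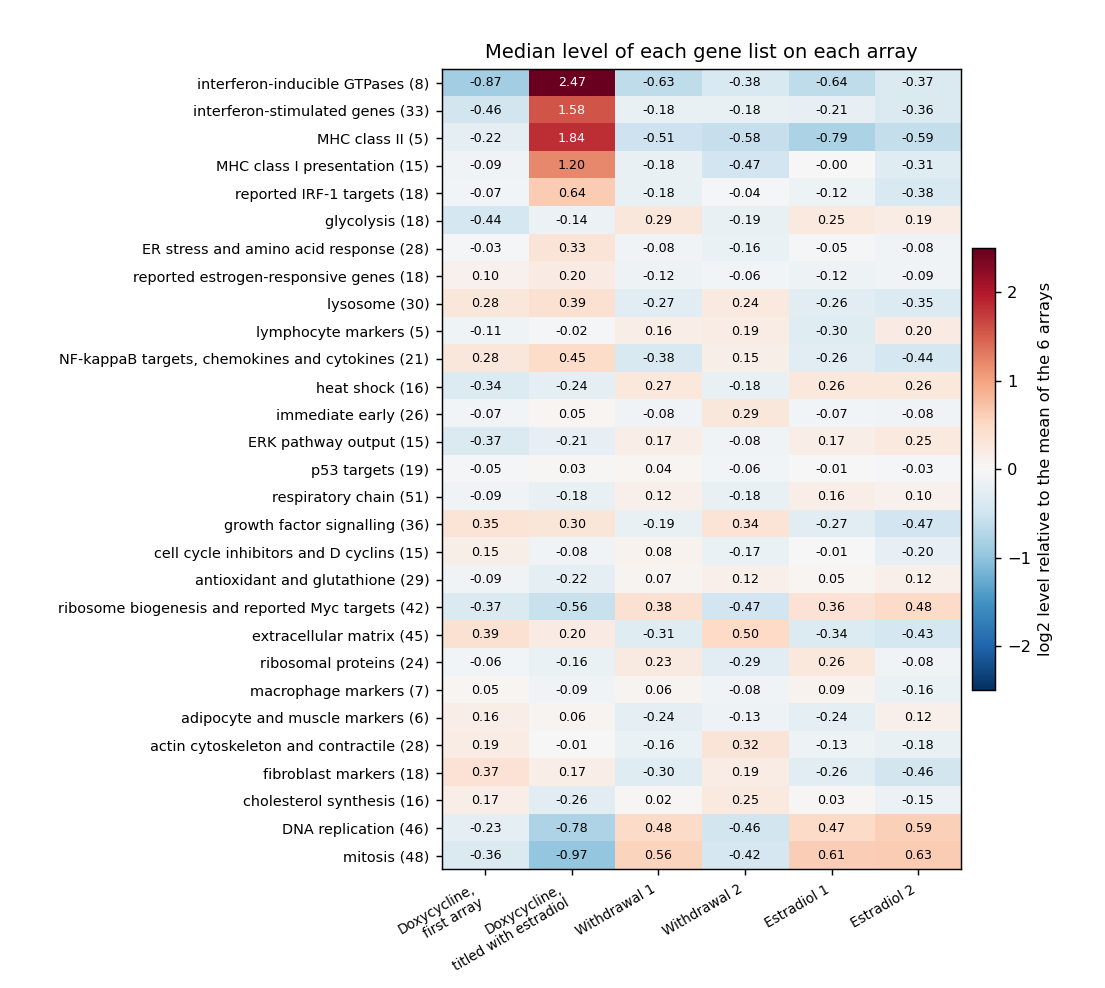
Median level of each gene list with at least 5 tested members on each of the 6 arrays, as log2(signal + 32) relative to the mean of the 6 arrays for each gene; the number of tested genes is in parentheses. The first 5 lists, all of interferon, MHC or IRF-1 target genes, are between 0.64 and 2.47 on the estradiol-titled array, and no value above 0 appears for them on the other 5 arrays. The mean includes the estradiol-titled array, so high values there push those of the other 5 below 0.

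Of the 131 genes with at least 1 probe set 2-fold higher, 53 were on the interferon, MHC or IRF-1 lists and 70 were on no list. The following genes from those 70 were chosen after their values were seen, apart from Plac8, Gm9706 and Slfn2, which the naming rule covers. Plac8, a small protein of immune cells and placenta, was 77.4 and 2431, a 31.4-fold ratio, against 112.5 to 305.8. Gm9706, a gene model without an assigned function here, was 15.1 and 559.1, against 2.9 to 33.3. Slfn2, of the schlafen family that restrains cell growth, was 8.5 and 582.0, against 8.6 to 20.2. Apod, a lipid carrier, was 20.7 and 461.0, against 4.3 to 46.1. Uba7, the enzyme that activates Isg15, was 74.5 and 330.2, a 4.43-fold ratio, against 31.9 to 71.9. Znfx1, a sensor of viral RNA, was 97.1 and 429.4, a 4.42-fold ratio, against 40.9 to 136.2. Lgals9, a galectin, was 337.3 and 999.2, a 2.96-fold ratio, against 358.6 to 401.8. C1ra, a complement protease, was 135.2 and 511.9, a 3.79-fold ratio, against 83.5 to 182.1. The genes shown do not stand for all 70, and others with differences above that of Lgals9 (1.48) were left out. Among these were Ifitm6 (2.11), H2-K2 (2.09), Prxl2a (2.05, with -0.15 on its other probe set), Dhrs7 (1.84), Prkar1b (1.77), Inpp1 (1.75), Agrn (1.74) and Clic4 (1.71).

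The immune cells that make MHC class II were checked through their markers. Of 20 macrophage markers on the array 0 differed at least 2-fold. With no filter, 202 of all 12422 probe sets were at least 2-fold higher and 123 lower, so 0 among 20 is near the share of all. Of the 20 markers, 13 had signals under 32 on both compared arrays and, with 32 added, could not reach 2-fold. The summed signal of the 20 was 852 on the first doxycycline array and 927 on the estradiol-titled array, with 803 to 919 on the others. Ptprc, the common leukocyte antigen, was 7.4 and 4.3, and Adgre1, which encodes F4/80, was 3.0 and 7.5. Cd14, Cd68 and Csf1r, which passed the filter, differed by 0.51, -0.68 and -0.17. Lymphocyte markers summed to 390 and 425, against 354 to 533, with 11 of 15 under 32 on both and Cd79a at 10.7 and 16.8. Fibroblast markers summed to 39040 and 36043, against 20636 to 34534, led by the collagens Col1a1 and Col1a2. Vim, Lum and Fap, also on that list, did not pass the filter. Endothelial markers summed to 250 and 253, and adipocyte and muscle markers to 508 and 437. Epithelial markers summed to 306 and 392, with 1 of 13, the dim Cldn3, 2-fold higher.

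As a measure of RNA quality, the ratio of 3' to 5' probe sets for Actb was 1.05 on the first doxycycline array and 1.04 on the estradiol-titled array, and for Gapdh it was 0.831 and 0.799. On the other arrays these ratios were 1.07 to 1.16 and 0.737 to 0.921.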

How the data were processed

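Total RNA of 6 samples was read on 1-colour Affymetrix MG-U74Av2 arrays, 1 array per sample. The authors deposited 1 linear intensity per probe set, a signal made with MAS5 according to the submitters' processing notes. Its version is not given in the sources. The deposited table held 12488 probe sets, of which 66 controls were left out. Of the other 12422, 10833 had 1 gene symbol in the platform annotation, 396 had several and 1193 had none, and only the first kind was named. The number of arrays, 1 per side, limits the precision. The labels do not say whether samples of a group came from separate cultures.

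Arrays were brought to 1 trimmed mean (2% left out at each end), 32 was added and log2 taken. Probe sets in the lowest 40% of mean log2 over the 6 arrays were dropped. A gene list used the brightest probe set of each gene. A probe set was counted as different at 2-fold or more, with no test. List levels are medians of values centred per gene. Named were Irf1, Myc, Ccnd1, Cdkn1a and Mki67; the 15 genes with the largest difference in each direction with 1 symbol and a signal of at least 100 on the brighter array; and up to 6 members of each list with the largest differences. Other genes given in the text, such as Irf7, Irf9, B2m and Tap2, fall outside this naming rule. They were not among the named probe sets rerun under the alternatives. The members, lists and rules were chosen with earlier results of these data known. Promoter windows came from RefSeq (GRCm38.p6), and both motifs were searched on both strands. The alternatives were other pseudocounts, quantile normalization or median scaling, other filters, the mean of a gene's probe sets, other reference arrays and each background array left out. Python 3.11.15, numpy 2.4.6, pandas 2.3.3 and matplotlib 3.10.9 were used, and the counting steps were tested on simulated data.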

Additional observations from a re-analysis of the deposited data

Results flagged for a closer look

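Of the 75 named probe sets past 2-fold between the compared doxycycline arrays, 9 went the opposite way for estradiol minus withdrawal, with the oncogenes on. The limit was at least 0.1 on the log2(signal + 32) scale in both replicates, so some of these opposite values are near 0. None of these differences between contrasts was tested. Ifit3, an antiviral protein, was 4.82 higher on the estradiol-titled doxycycline array, against -0.16 and -0.40 for estradiol minus withdrawal. H2-K1, a class I heavy chain, was 1.98 higher, against -0.13 and -0.42. The class II gene H2-DMa was 1.97 higher, against -0.15 and -0.53, and H2-Eb1 was 1.94 higher, against -0.48 and -0.26. Gadd45a, a growth arrest gene, was 1.56 higher, against -0.16 and -0.26. Aurkb, a mitotic kinase, had a difference of -1.66, against 0.17 and 1.45. Kifc1, a spindle motor, had -1.25, against 0.74 and 0.72. Nfkbie, an inhibitor of NF-kappaB, had -1.23, against 0.39 and 0.41. Hoxa7, a homeobox gene, had -1.46, against 0.17 and 0.10. From replicate 1 to replicate 2, Hoxa7 differed by more than these 2 values, by 0.79 after withdrawal and by 0.73 with estradiol.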

How the results depend on the processing

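No paired analysis was possible because the compared groups hold 1 array each and share no replicate number. With no test, an alternative can move a count or a median but cannot end a call of significance. The medians of the 8 lists of interferon-stimulated, GTPase, MHC class I, MHC class II, IRF-1 target, estrogen-responsive, mitosis and DNA replication genes kept their sign under every alternative run. Named probe sets were rerun only under 4 scalings or pseudocounts, and there none past 2-fold changed sign. They were not rerun against other reference arrays. Of the 31 lists, 18 others, with medians between -0.36 and 0.27, changed sign under at least 1 alternative (to values between -0.38 and 0.43), so no direction is read from them. Of these, the NF-kappaB list went to -0.01 with the lowest 60% left out and the extracellular matrix list to 0.36 against the mean of the 4 background arrays. Further, 14 of 75 named probe sets past 2-fold fell under 2-fold in at least 1 of 4 scalings or pseudocounts. With a pseudocount of 16, 183 probe sets were at least 2-fold lower, and list medians were 2.26 (interferon-stimulated), 3.71 (GTPases), 2.11 (MHC class II) and 0.28 (estrogen-responsive). With a pseudocount of 64 these were 58, 1.76, 3.16, 1.83 and 0.16. The estrogen-responsive median was 0.19 after quantile normalization and 0.18 after median scaling, which moved the median of all probe sets by -0.02 and -0.06. With no filter the medians were 1.87 (interferon-stimulated), 0.93 (MHC class I), 1.82 (MHC class II) and 0.36 (IRF-1 targets). With the lowest 60% left out, 100 probe sets were higher, 69 lower, and 33 of 39 interferon and MHC genes were higher, with medians of 2.35 (interferon-stimulated), 0.97 (IRF-1 targets) and 0.34 (estrogen-responsive). With the mean of a gene's probe sets, the medians were 1.97 (interferon-stimulated) and 0.67 (IRF-1 targets). The following were chosen after seeing the data. With the filter set on the 4 arrays not compared, the interferon-stimulated median was 1.70, and 40 of 49 interferon and MHC genes were higher. Against the mean of those 4 arrays in place of the first doxycycline array, 234 probe sets were lower and medians were 1.92 (interferon-stimulated), 2.82 (GTPases), 1.60 (MHC class I), 2.27 (MHC class II), 0.31 (estrogen-responsive), -1.33 (mitosis) and -1.0 (DNA replication). Against withdrawal replicate 2, 318 were higher, 264 lower, and medians were 1.63, 3.30 and 1.83 for the interferon-stimulated, GTPase and MHC class I lists and 0.32 for the estrogen-responsive one. Leaving out each background array in turn, the estradiol-titled array was above the others in 160 to 164 of the 169 higher probe sets and below them in 71 to 77 of the 114 lower ones. The first doxycycline array was below the others in 73 to 85 and above them in 55 to 72.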
